A study of Homalium kanaliense and Homalium betulifolium with 6 samples.

Results

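The contigs described here were the most heavily counted leaf transcripts that 2 tree species of the genus Homalium (Salicaceae) had in common. Contigs, the assembled transcript sequences on which reads were counted, were ranked by read count within each library, with rank 1 for the most reads, and those at rank 300 or better in all 6 libraries were taken. Of 52634 contigs, 81 met this rule (0.154%), and all 81 entered the test of the species difference. The contigs were thus chosen by their read counts in these same 6 libraries, so their high level in every plant is a description and not a result.

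Homalium kanaliense, labelled a nickel hyperaccumulator, a kind of plant whose leaves store the metal at high concentration, was sampled as leaves of 3 wild plants collected on 11 June. Homalium betulifolium, given as a species that does not accumulate nickel, was sampled as leaves of 3 wild plants collected on 11 September of that year at another site. All plants grew on serpentine soil in New Caledonia, each library came from 1 plant, and the reads of both species were counted on a leaf transcriptome assembled from 1 H. kanaliense plant. The species therefore differed in site, in date and in whether the reference was their own, and these cannot be told apart. Where 3 values are given for a species, they are those of its plants 1, 2 and 3 in that order.

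A leaf is built around photosynthesis, and in leaves of flowering plants a small set of nuclear transcripts usually takes a large part of the messenger RNA: the small subunit of RuBisCO, which fixes carbon dioxide, the chlorophyll a/b-binding proteins, which capture light, and enzymes of carbon fixation and photorespiration. Nickel hyperaccumulators add a load of metal to such leaves, which they bind with organic acids and store largely in vacuoles of the epidermis. The files pair no contig with a gene name or a sequence, so the contigs below are known by number, no function is attached to them, and leaf marker genes were not examined. Several contigs may belong to 1 gene. Reads were not divided by contig length, so the order of contigs is an order of reads, in which longer transcripts gain.

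Libraries held 39023490 to 51478909 reads in H. kanaliense and 37057687 to 56616000 reads in H. betulifolium. The fewest reads on a core contig were 14553 in H. kanaliense and 16361 in H. betulifolium, so counting error was small beside the differences between plants. Over all tested contigs the median absolute difference in log2(CPM + 1) between H. betulifolium plant 3 and the H. kanaliense plants was 0.41 to 0.46. For the other 2 plants of its species it was 0.48 to 0.57. H. betulifolium plant 3 stood at 0.52 from plant 1 and 0.49 from plant 2 of its own species, and those 2 were 0.50 apart. By this measure over all tested contigs it thus lay nearer to each H. kanaliense plant than to either plant of its own species. The order of the core contigs went the other way. Spearman's rho of H. betulifolium plant 3 was 0.587 and 0.594 with its own species and 0.291 to 0.475 with H. kanaliense. The H. kanaliense plants were 0.24 to 0.28 apart. The edgeR calls, the median fold change of the core and its spread are given with and without H. betulifolium plant 3. Other results include it unless stated.

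The core contigs took a larger part of the reads in H. betulifolium plants 1 and 2 than in any other plant. They held 13.4%, 10.4% and 9.67% of all reads in H. kanaliense, and 24.3%, 17.8% and 11.4% in H. betulifolium. The species means were 11.2% ± 1.96 in H. kanaliense and 17.8% ± 6.43 in H. betulifolium (SD, n = 3 each), and the species overlapped, since H. betulifolium plant 3 was below H. kanaliense plant 1. No test was made of this sum, because the rule chose its parts. The 95% Wilson interval of each share, which covers counting error only, was narrow, for example 24.27% to 24.29% for H. betulifolium plant 1. In these bulk leaves, fewer cells of a type and less RNA per cell cannot be told apart.

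**Figure D1:**
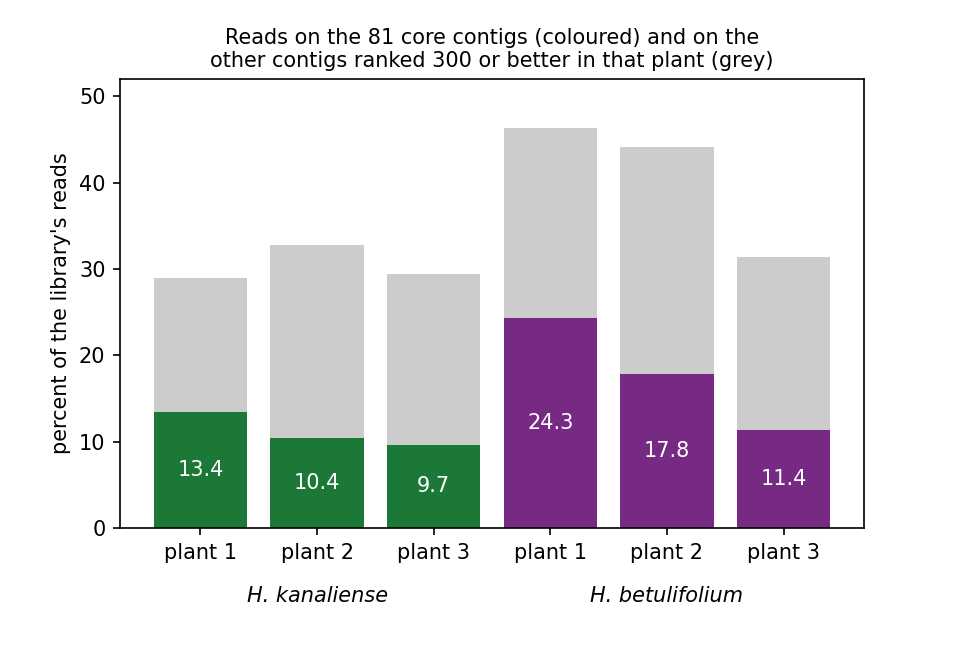
Percent of each library's reads (vertical axis) on the 81 core contigs, in colour with the value printed, and on the other contigs ranked 300 or better in that plant, in grey, for 3 plants of each species. H. betulifolium plants 1 and 2 have the highest coloured bars, at 24.3% and 17.8%, and H. betulifolium plant 3, at 11.4%, falls among the H. kanaliense plants.

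The other contigs at rank 300 or better differed less between plants. Together with the core, the 300 leading contigs took 29.0%, 32.8% and 29.5% of reads in H. kanaliense and 46.4%, 44.1% and 31.4% in H. betulifolium. The part outside the core was 15.6%, 22.4% and 19.8% in H. kanaliense and 22.1%, 26.3% and 20.02% in H. betulifolium. The core thus made up 46.3%, 31.8% and 32.8% of the reads on the leading 300 contigs in H. kanaliense and 52.4%, 40.4% and 36.3% in H. betulifolium. In each species plant 1 had the largest core.

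The core contigs spread over the whole range of leading ranks. Among them 21 stood at rank 100 or better in all 6 plants, 73 did so in at least 1 plant, and 28 had a worst rank past 200. Their median rank was 61, 90 and 102 in H. kanaliense and 51, 73 and 97 in H. betulifolium. Among the 10 leading contigs of a plant, 7, 2 and 3 were core contigs in H. kanaliense and 8, 5 and 3 in H. betulifolium. A core contig moved over a median of 112 ranks between its best and its worst plant, with a range of 3 to 251 ranks.

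Hkan_v1_contig_31 was the only contig among the leading 10 of all 6 plants. It ranked 1, 4 and 4 in H. kanaliense and 1, 4 and 3 in H. betulifolium. It took 1.69%, 1.16% and 0.802% of all reads in H. kanaliense and 2.91%, 1.19% and 0.831% in H. betulifolium. Plant 1 was the highest and plant 3 the lowest in each species, and the species overlapped. Without this contig the core still held 11.7%, 9.29% and 8.87% of reads in H. kanaliense and 21.4%, 16.6% and 10.6% in H. betulifolium.

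Hkan_v1_contig_268 had the next best worst rank and separated the species. Its CPM (read count relative to the scaled library total), scaled by the trimmed mean of M-values (TMM, a factor per library that sets the bulk of contigs level), were 2698, 2994 and 2152 CPM in H. kanaliense and 25336, 13327 and 12957 CPM in H. betulifolium. All 3 H. betulifolium plants lay above all 3 H. kanaliense plants, and this held for ranks too: it ranked 10, 13 and 13 in H. kanaliense and 3, 3 and 1 in H. betulifolium. Its log2 fold change of H. kanaliense over H. betulifolium was -2.72 ± 0.83 (SE), with an adjusted p of 0.209 in edgeR's quasi-likelihood test, so it was not called. DESeq2 called it, with an adjusted p of 4.59e-06, and limma-voom did so with 0.041.

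Hkan_v1_contig_41, the third by worst rank, did not separate the species. It was at 2788, 2083 and 1869 CPM in H. kanaliense and at 10606, 3225 and 1872 CPM in H. betulifolium. H. betulifolium plant 3 was level with H. kanaliense plant 3, and its log2 fold change was -1.22 ± 0.86 (SE; edgeR adjusted p 0.584). That value was -0.41 with library totals and -0.19 without H. betulifolium plant 1.

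Leading contigs of single plants were not always part of the core. Hkan_v1_contig_40 ranked 1 in H. kanaliense plant 2 with 845697 reads, against 0 and 169 reads in H. kanaliense plants 1 and 3. It had 0, 51 and 0 reads in H. betulifolium. Hkan_v1_contig_1 ranked 1 in H. kanaliense plant 3 and stood at ranks 8 and 2 in H. kanaliense plants 1 and 2, but at ranks 130, 1860 and 6 in H. betulifolium. Hkan_v1_contig_245 ranked 1 in H. betulifolium plant 2 and between 2 and 15 in 4 other plants, but 1541 in H. betulifolium plant 3. Each was kept out of the core by its values in 1 to 5 plants.

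The size of the core was set more by H. betulifolium than by H. kanaliense. In all 3 H. kanaliense plants 203 contigs were at rank 300 or better, and in all 3 H. betulifolium plants 119 were. The 81 core contigs were 39.9% of the first list, 68.1% of the second, and 12.6% of the 641 contigs at rank 300 or better in at least 1 plant. Of these 641, 215 reached that rank in a single plant, 124 in 2, 88 in 3, 78 in 4 and 55 in 5 plants. Among the 55 contigs that 1 plant kept out, the H. kanaliense plants kept out 1, 3 and 3, and the H. betulifolium plants 6, 19 and 23.

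Most contigs that 1 plant kept out were close to the threshold in it. Those kept out by H. betulifolium plant 2 had a median rank of 504 there, with 9 of 19 past rank 600 and the poorest at 15548. Those kept out by H. betulifolium plant 3 had a median rank of 524 there, with 10 of 23 past rank 600 and the poorest at 4483. None of the 13 kept out by any of the other 4 plants was past rank 600.

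**Figure D2:**
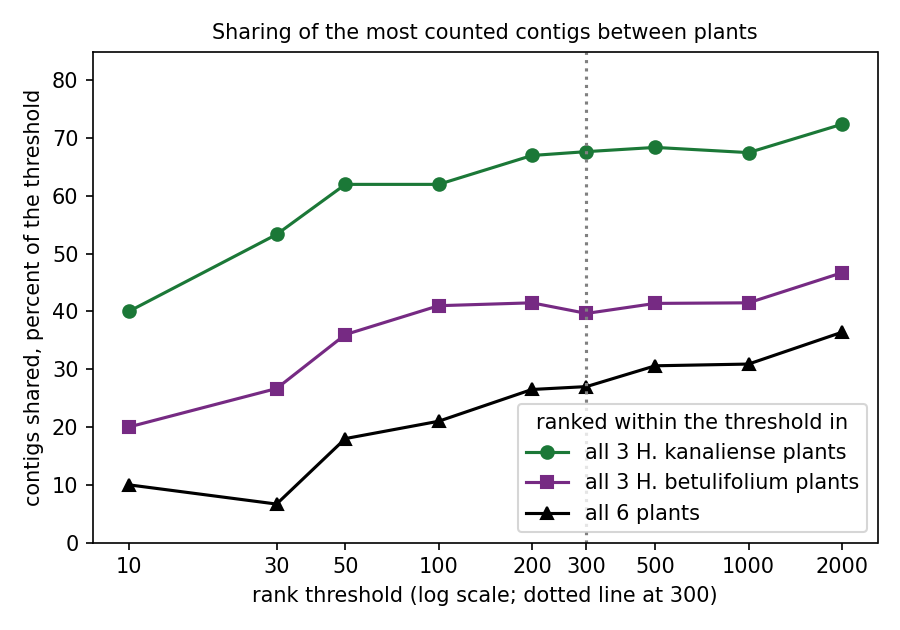
Number of contigs ranked within a threshold in all 3 H. kanaliense plants, in all 3 H. betulifolium plants or in all 6 plants, as a percent of the threshold (vertical axis), against the threshold (horizontal axis, log scale, thresholds of 10 to 2000). At every threshold the H. kanaliense plants share more contigs than the H. betulifolium plants do; at 300 the counts are 203 for H. kanaliense, 119 for H. betulifolium and 81 for all 6 plants.

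The overlap between plants grew with the depth of the list. At a rank of 10 or better 1 contig was shared by all 6 plants, at 30 there were 2, at 50 there were 9, at 100 there were 21 and at 200 there were 53. At 500 there were 153, at 1000 there were 309, and at 2000 there were 728, or 36.4% of the threshold, against 27% at 300. The smallest thresholds had the lowest shares, 10% at 10 and 6.67% at 30, as the plot of shared contigs against the threshold shows.

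Contigs on the list of only 1 species were often far down in the other, in both directions. Of the 122 contigs that only the H. kanaliense list held, 46 were within rank 600 in every H. betulifolium plant. Another 46 were past 600 but within 5000 in their poorest plant there, and 30 were past 5000. Of the 38 contigs that only the H. betulifolium list held, 17 were within rank 600 in every H. kanaliense plant, 9 were past 600 but within 5000, and 12 were past 5000. The values next to the rank threshold were close: Hkan_v1_contig_919 and Hkan_v1_contig_426 were just inside with worst ranks of 296 and 293, both in H. betulifolium plant 1, whereas Hkan_v1_contig_341, at 301 in H. betulifolium plant 2, and Hkan_v1_contig_492, at 305 in H. betulifolium plant 3, were just outside. In those deciding plants they had 25204 and 25278 reads inside and 14513 and 17509 reads outside, where the contigs at rank 300 had 25064, 14539 and 17973 reads in H. betulifolium.

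On the TMM scale the core was lower in every H. kanaliense plant than in H. betulifolium plants 1 and 2 by its median. The median core contig had 1007, 780 and 683 CPM in H. kanaliense and 3927, 1812 and 832 CPM in H. betulifolium. H. betulifolium plant 3 lay within the range of H. kanaliense. H. betulifolium plant 1 was the highest of the 6 plants for 73 of the 81 contigs, H. betulifolium plant 2 for 5, and H. kanaliense plants 2 and 3 and H. betulifolium plant 3 for 1 each. With library totals in place of TMM, H. betulifolium plant 1 was the highest for 44. The factors by which TMM multiplied the library totals were 1.24, 1.14 and 1.26 for H. kanaliense and 0.546, 0.918 and 1.12 for H. betulifolium, so the scaling raises the values of H. betulifolium plant 1 most.

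**Figure D3:**
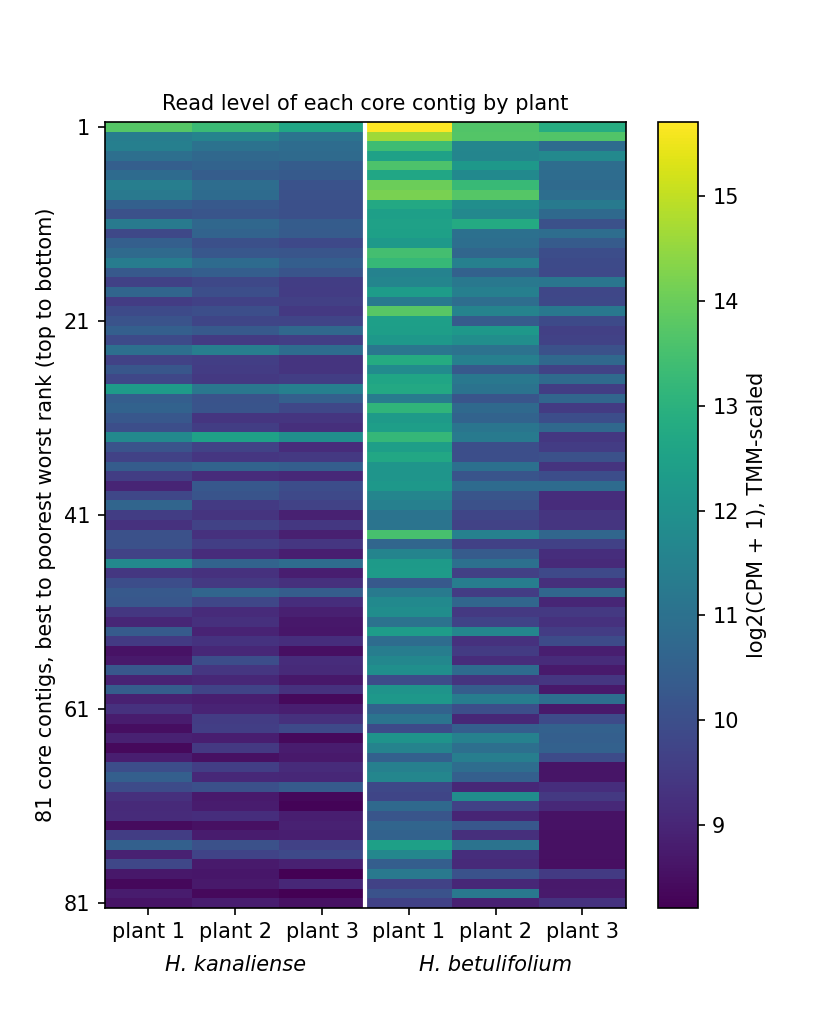
Read level of each of the 81 core contigs (rows, ordered by worst rank, best at the top) in the 3 H. kanaliense and 3 H. betulifolium plants (columns), as log2(CPM + 1) on the TMM scale. The column of H. betulifolium plant 1 is the brightest, with a median of 3927 CPM. That of H. betulifolium plant 3 has a median of 832 CPM, within the range of the H. kanaliense medians.

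In the main fit of all 6 plants edgeR called no core contig different between the species, whereas other tools called some. edgeR's quasi-likelihood test, fitted over 44048 contigs at a Benjamini-Hochberg adjusted p of 0.05, called 0 of the 81, against 0.885% of all tested contigs (0.64% higher and 0.245% lower in H. kanaliense). Another fit took only the 26249 contigs whose count reached 10 in each of the 6 plants, as all core contigs did. Of these 26249, 79 were called higher and 100 lower in H. kanaliense, and 0 of the 81 core contigs were called. In the fit over 44048 contigs the lowest adjusted p of a core contig was 0.113. At an unadjusted p under 0.05 there were 19 of the 81, all with lower values in H. kanaliense, against 13.8% of all tested contigs, 5.69% in that direction. DESeq2 called 16 of the 81, all lower in H. kanaliense, where it called 7.55% of all contigs, 2.87% lower and 4.67% higher. limma-voom called 3, all lower in H. kanaliense, against 1.8% of all contigs, 0.456% lower and 1.35% higher. Without H. betulifolium plant 3 edgeR called 1 core contig, lower in H. kanaliense, with an adjusted p of 0.0498, against 1.49% of all contigs, 0.739% lower and 0.752% higher. A contig ranked 300 or better in both species cannot differ as far as others can, so these shares are given side by side and nothing is read from them.

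The absence of calls does not show that the species were alike in these contigs. The 95% interval of the log2 fold change reached a median of 1.76 to either side of its value, with a range of 1.13 to 2.496, and for 0 of the 81 contigs did it lie within -1 and 1. It included 0 for 62 contigs and -1 for 78.

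The fold changes leaned to one side. The median log2 fold change of H. kanaliense over H. betulifolium was -1.30 over the 81 core contigs and 0.0044 over all tested contigs, and 77 of the 81 values were below 0, 56 below -1 and 13 below -2. They ranged from -2.92 to 0.73. With library totals the median was -0.56, where that of all contigs moved to 0.48, and 65 of the 81 were below 0. Without H. betulifolium plant 1 the median was -0.52 with 62 below 0, and without plant 3 it was -1.77 with 80 below 0. The size of the lean thus varied with the scaling and with the H. betulifolium plants included.

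**Figure D4:**
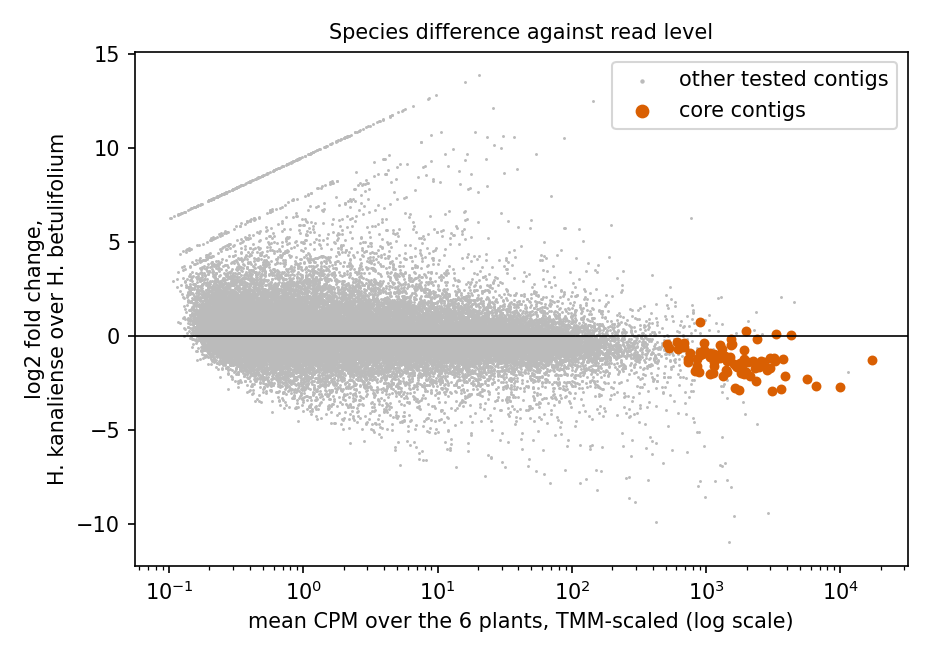
Log2 fold change of H. kanaliense over H. betulifolium (vertical axis) against mean CPM over the 6 plants on the TMM scale (horizontal axis, log scale), for the 81 core contigs in orange and the other tested contigs in grey. The core contigs lie at the right, where the rule places them, between -2.92 and 0.73, and 77 of the 81 are below 0.

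Other much-counted contigs leaned the same way. Of the 106 contigs at rank 600 or better in every plant but not in the core, 95 had a log2 fold change below 0, with a median of -0.78. Of the 560 contigs at rank 300 or better in 1 to 5 plants, 402 did, with a median of -0.91. Whether the core differs from them was not tested, since the same counts defined all these sets.

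Values of the 3 plants of each species did not overlap in 30 core contigs. On the TMM scale the H. kanaliense plants were above in 1 contig, against 14.6% of all tested contigs. The H. betulifolium plants were above in 29 (35.8%), against 9.15% of all tested contigs. Other much-counted contigs had high shares too. Of the 106 at rank 600 or better in every plant outside the core, H. betulifolium was above in 25.5% and H. kanaliense in 1.89%. Of the 560 at rank 300 or better in at least 1 plant outside the core, these shares were 23.6% and 7.86%. With library totals the H. kanaliense plants were above in 2, against 23.5%, and the H. betulifolium plants in 20, against 3.24%. By rank, which no scaling touches, the H. kanaliense plants stood above in 8, against 10.8%, and the H. betulifolium plants in 15, against 12.5%. The same 15 contigs were set apart, with H. betulifolium above, on all 3 scales. These scales rest on the same counts, and the share of all tested contigs set apart on all 3 was not computed. The rule used these counts, so the shares are a description.

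The contigs called by limma-voom and by the fit without H. betulifolium plant 3 were singled out after their values were seen. Besides Hkan_v1_contig_268 they were Hkan_v1_contig_2064 and Hkan_v1_contig_1874. Hkan_v1_contig_2064 was at 475, 454 and 341 CPM in H. kanaliense and at 4763, 2673 and 1921 CPM in H. betulifolium, with an edgeR adjusted p of 0.113. Hkan_v1_contig_1874 was at 476, 461 and 338 CPM in H. kanaliense and at 4302, 2921 and 1426 CPM in H. betulifolium, with an edgeR adjusted p of 0.133, and it is the contig called without H. betulifolium plant 3. In both, every H. betulifolium plant was above every H. kanaliense plant, and their values ran close together in all 6 plants.

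On the other side, 4 core contigs had a log2 fold change above 0, and these too were singled out after their values were seen. Hkan_v1_contig_1253 was the contig whose H. kanaliense plants lay above on the TMM scale. It had 978, 1047 and 1321 CPM in H. kanaliense and 910, 526 and 583 CPM in H. betulifolium. On the log2 scale the fitted difference was 0.73 ± 0.54 (SE; edgeR adjusted p 0.604). Hkan_v1_contig_989, Hkan_v1_contig_74 and Hkan_v1_contig_855 had values of 0.28, 0.07 and 0.06, and in DESeq2 Hkan_v1_contig_74 and Hkan_v1_contig_855 were at -0.02 and -0.03, so their sign was not settled. By rank all 4 stood better in every H. kanaliense plant than in any H. betulifolium plant; Hkan_v1_contig_855 ranked 4, 7 and 5 in H. kanaliense and 13, 49 and 123 in H. betulifolium.

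The widest ranges between plants on the TMM scale came with high values in H. betulifolium plant 1. The ratio of the highest to the lowest CPM over the 6 plants had a median of 6.91 in the core on the TMM scale, with 0 contigs under 2, 17 from 2 to 4, 31 from 4 to 8, and 33 at 8 or more. With library totals the median was 3.54, with 12 contigs under 2, 38 from 2 to 4, 26 from 4 to 8, and 5 at 8 or more. Hkan_v1_contig_1051 had the largest ratio, 25.4, with 1081, 616 and 464 CPM in H. kanaliense and 11809, 2909 and 1640 CPM in H. betulifolium. Hkan_v1_contig_136, with a ratio of 19.4, had 956, 1027 and 707 CPM in H. kanaliense and 13715, 2991 and 2371 CPM in H. betulifolium. In both contigs the species did not overlap, and H. betulifolium plant 1 stood far above the other plants of its species.

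Hkan_v1_contig_554, with a ratio of 17.5, had 2421, 1833 and 1071 CPM in H. kanaliense and 18756, 13475 and 1920 CPM in H. betulifolium. Here H. betulifolium plants 1 and 2 were high and plant 3 lay among the H. kanaliense plants. The edgeR adjusted p was 0.250, 0.243 and 0.316 for Hkan_v1_contig_1051, Hkan_v1_contig_136 and Hkan_v1_contig_554 in that order, and DESeq2 called all 3, with adjusted p of 0.0094, 0.0068 and 0.022. Without H. betulifolium plant 1 the log2 fold changes of Hkan_v1_contig_1051 and Hkan_v1_contig_136 were -1.67 and -1.59, against -2.92 and -2.83 with all plants.

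The core contigs with the smallest ratios differed over 2-fold between plants on the TMM scale and less with library totals. Hkan_v1_contig_919 had the smallest ratio, 2.17, with 393, 452 and 376 CPM in H. kanaliense and 815, 482 and 634 CPM in H. betulifolium. Hkan_v1_contig_1331, with a ratio of 2.33, had 1402, 1112 and 1439 CPM in H. kanaliense and 2590, 1168 and 1641 CPM in H. betulifolium. Hkan_v1_contig_808, with a ratio of 2.39, had 493, 528 and 412 CPM in H. kanaliense and 984, 640 and 669 CPM in H. betulifolium. H. betulifolium plant 1 was the highest in all 3 on the TMM scale. With library totals the ratios of Hkan_v1_contig_919, Hkan_v1_contig_1331 and Hkan_v1_contig_808 were 1.61, 1.72 and 1.44, and H. betulifolium plant 3 was the highest in all 3. With library totals the log2 fold changes of these contigs were -0.12, 0.15 and -0.12, against -0.66, -0.45 and -0.68 with TMM, so for Hkan_v1_contig_1331 the sign turned with the scaling.

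**Figure D5:**
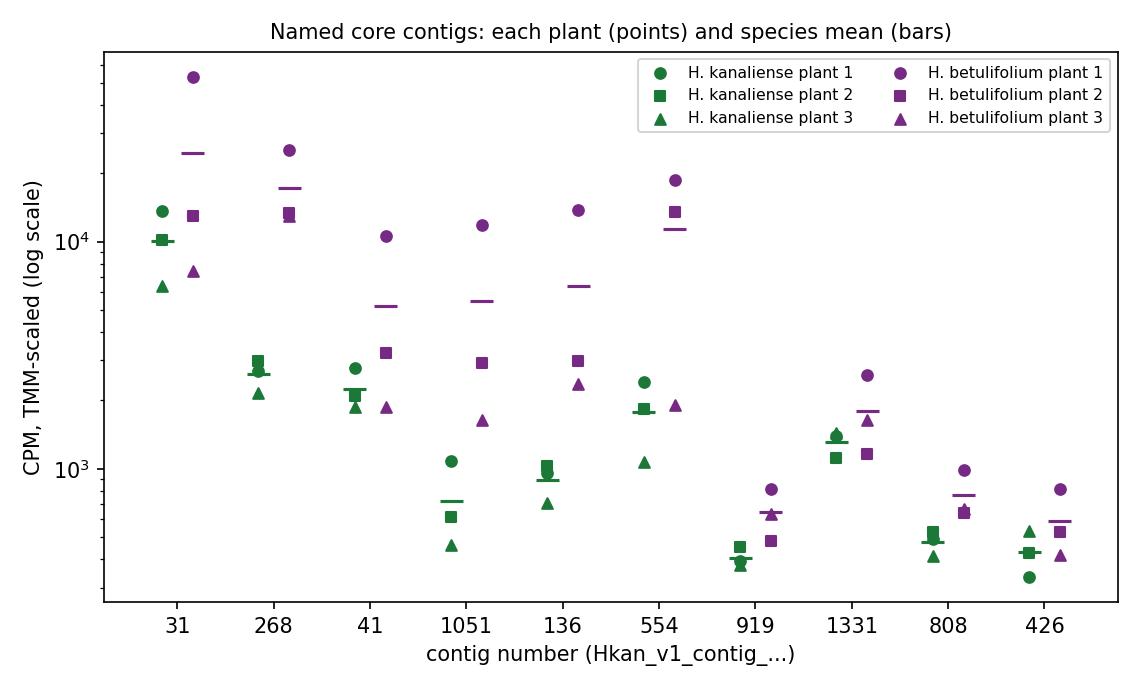
CPM on the TMM scale (vertical axis, log scale) of the 10 core contigs named by rule, in each H. kanaliense plant (left, green) and each H. betulifolium plant (right, purple), with bars at the species means. From left to right they are the 3 with the best worst rank, the 3 with the largest ratio between plants, the 3 with the smallest and 1 more next to the rank threshold; H. betulifolium plant 1, the purple circle, is the highest point in all 10 on this scale.

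H. betulifolium plants differed more among themselves in the core than H. kanaliense plants did. The SD of log2(CPM + 1) over the 3 plants had a median of 0.30 in H. kanaliense and 1.1004 in H. betulifolium over the 81 contigs, and it was the larger in H. betulifolium for 79. Over all tested contigs the medians were 0.23 in H. kanaliense and 0.46 in H. betulifolium, and 76.1% had the larger SD in H. betulifolium. Other much-counted contigs also varied more in H. betulifolium. For the 106 at rank 600 or better in every plant outside the core, the medians were 0.27 in H. kanaliense and 0.87 in H. betulifolium. For the 560 at rank 300 or better in at least 1 plant outside the core, they were 0.39 and 1.44 in that order. The SD was the larger in H. betulifolium for 93.4% of the 106 and 90.4% of the 560. With library totals the medians for the core were 0.32 in H. kanaliense and 0.72 in H. betulifolium, with 70 of 81 larger in H. betulifolium. Without H. kanaliense plant 1 the median of that species was 0.20 on the TMM scale. In H. betulifolium the median on that scale was 0.50 without plant 1, 1.47 without plant 2 and 0.91 without plant 3. The difference in spread was not tested.

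The spread was smaller for most core contigs, not for all, when each was expressed as a share of the core's own reads: in H. betulifolium the SD was smaller than on the TMM scale for 64 contigs and larger for 17. On that scale, which no library factor touches, the SD of the log2 share had a median of 0.24 in H. kanaliense and 0.52 in H. betulifolium, and it was the larger in H. betulifolium for 62 of 81. The 10 core contigs with the highest mean CPM took 34.7%, 34.0% and 29.5% of core reads in H. kanaliense and 38.8%, 37.2% and 32.1% in H. betulifolium. Hkan_v1_contig_31 alone took 12.6%, 11.1% and 8.30% in H. kanaliense and 11.97%, 6.70% and 7.28% in H. betulifolium.

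The shares of core reads sum to a fixed total, so they show how contigs stood relative to one another and say nothing of the lean against all reads. As a share of core reads 51 contigs had the larger mean log2 value in H. kanaliense and 30 in H. betulifolium. The plants did not overlap with H. kanaliense above in 15 and with H. betulifolium above in 11. No share over all contigs was computed on this scale, so nothing is read from these counts. Hkan_v1_contig_1253 and Hkan_v1_contig_855 had the highest log2 ratios, 1.93 each, with 3.13%, 6.27% and 5.08% of core reads on Hkan_v1_contig_855 in H. kanaliense and 2.11%, 1.27% and 0.675% in H. betulifolium. Hkan_v1_contig_2064 and Hkan_v1_contig_268 had the lowest, -1.62 and -1.49, with 2.49%, 3.25% and 2.81% on Hkan_v1_contig_268 in H. kanaliense and 5.70%, 6.86% and 12.7% in H. betulifolium. These 4 were picked at the ends of the order after their values were seen.

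The order of the core contigs was most alike in H. kanaliense plants 2 and 3. Spearman's rho of read counts over the 81 contigs was 0.932 for that pair and 0.763 and 0.748 for the pairs with H. kanaliense plant 1. It was 0.587 to 0.662 between H. betulifolium plants and 0.291 to 0.671 between plants of different species. The lowest value was between H. kanaliense plant 1 and H. betulifolium plant 3, and H. betulifolium plant 1 had higher values with the H. kanaliense plants, 0.553 to 0.671, than H. betulifolium plant 3 had, 0.291 to 0.475. These are descriptions over contigs chosen for a narrow range of ranks, and contigs of a plant share its library.

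Some core contigs kept a near-constant ratio of reads in all 6 plants. Over 3240 pairs of core contigs the SD of the log2 ratio had a median of 0.78, and in 26 pairs it was under 0.2. No such count is given for pairs of other contigs, so nothing particular to the core is read from it. The steadiest pair, picked for this after its values were seen, was Hkan_v1_contig_390 over Hkan_v1_contig_958, with ratios of 1.89, 2.15 and 2.26 in H. kanaliense and 2.19, 2.07 and 2.24 in H. betulifolium. The next was Hkan_v1_contig_808 over Hkan_v1_contig_919, 2 of the contigs with the smallest ratios between plants, with ratios of 1.26, 1.17 and 1.09 in H. kanaliense and 1.21, 1.33 and 1.05 in H. betulifolium. Whether such pairs belong to 1 gene was not tested.

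The core contigs, chosen by read count, had low numbers in the reference. Their contig numbers ran from 10 to 3350 with a median of 696, among 52634 contigs, and 58 of the 81 were at 1000 or below. The number followed the read count over all contigs, with Spearman's rho of -0.751, -0.828 and -0.747 in H. kanaliense and -0.708, -0.652 and -0.695 in H. betulifolium. The relation was strongest in H. kanaliense plant 2. The low numbers of the core are therefore not independent of the rule that chose it. How the contigs were numbered is not given in the sources used here, and these are descriptions over contigs.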

How the data were processed

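Leaf polyA RNA of 6 plants was sequenced from strand-specific libraries, per the labels' protocols. The deposited files hold raw read counts on the contigs of an H. kanaliense transcriptome, which the authors made from 1 plant, per the file headers and the series' design text. The assembler, aligner, counting tool and treatment of multiply matching reads were not given in the sources used here. Library totals ranged from 37057687 to 56616000 reads. Groups were taken from the sample titles. Plants are separate individuals, and p-values set the difference between species against the spread between plants of a species.

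Contigs were ranked by count with ties at the minimum rank, and the members and lists were chosen with earlier results of these data known. Species were compared over all 6 plants with edgeR 4.0.16 in R 4.3.3: filterByExpr (minimum count 10, minimum total 15), TMM, robust glmQLFit and glmQLFTest, without covariates, after the test was tested on simulated data. The SE is the log2 fold change divided by the square root of F, and intervals at 95% use the fit's degrees of freedom. SDs of levels are of log2(CPM + 1).

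Named contigs were, by rule, called members (2 a side, of which there were 0), the 3 with the best worst rank, the 3 with the largest and the 3 with the smallest ratio of highest to lowest CPM, the 2 nearest the rank threshold on either side and the contig at rank 1 in each library. Alternatives were other scalings, filters, DESeq2 1.42.0, limma-voom (limma 3.58.1), the replicate number as a block, other rank thresholds and each plant left out. The lists of leaf genes were not tested, since 0 contigs could be matched to a gene name. Figures were drawn with matplotlib 3.10.9.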

Additional observations from a re-analysis of the deposited data

How the results depend on the processing

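The 81 contigs were the same with ties at the maximum rank and after thinning all libraries to the smallest total. Rank thresholds of 100, 200, 500 and 1000 gave 21, 53, 153 and 309 contigs, which held 4.72%, 9.15%, 15.2% and 20.6% of reads in H. kanaliense (mean), and with 100 and 1000 9.20% and 29.2% in H. betulifolium. The 203 contigs from H. kanaliense libraries alone held 23.9% of reads in H. kanaliense and 25.6% in H. betulifolium. Membership from 5 plants gave 82 to 104 contigs, holding 11.2% to 14.3% of reads in H. kanaliense and 17.9% to 20.7% in H. betulifolium. Over all contigs edgeR called 390 of 44048 tested. With at least 10 reads in every plant it called 179 of 26249 (79 higher and 100 lower in H. kanaliense, against 282 and 108). DESeq2 called 3280 and limma-voom 795. Leaving out 1 plant gave 0 to 700, with 700 without H. betulifolium plant 3 and 0 without each of the other 5. The fits without 1 plant that called 0 had between 4113 and 7605 with p under 0.05 before adjustment; no other tool was run on them. The replicate block left 0 calls by edgeR over the 44048 tested contigs (4722 with p under 0.05 before adjustment). Of the 81 core contigs it called 0 (6 before adjustment). The block numbers stand for different plants, whose deviations correlated at -0.0013, -0.073 and 0.152, and 2 of 3 H. kanaliense plants correlated best with another number. Core contigs called were 0 in every edgeR fit of all 6 plants, 0 to 1 with 1 plant left out, 1 of 104 with members and fit both without H. betulifolium plant 3, 16 by DESeq2 and 3 by limma-voom. The median log2 fold change of the core stayed below 0 in all alternatives, from -1.77 to -0.52. The median SD with 1 plant left out was 0.20 to 0.37 in H. kanaliense and 0.50 to 1.47 in H. betulifolium. The cause of these differences was not tested. The alternatives without H. betulifolium plant 3 in both members and fit, without the most counted contig and with 1 plant left out of the SD were chosen after seeing the data.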
